A study of Mus musculus with 2 samples.

Results

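Cells of *Supt6*-KO mouse epidermis were divided by whether they carried a transcript that was nearly absent from control epidermis. This transcript is row R06163 of the deposited single-cell count tables, which number the genes and do not pair the rows with names. Its detection chose the members. Of 12971 barcodes in the *Supt6*-KO library, 8540 had at least 500 detected rows and at least 5000 unique molecular identifiers (UMIs, each standing for 1 captured RNA molecule). Among these cells, 2581 held 1 or more UMIs of R06163 and are called positive, and 5959 held 0 and are called negative. The 2 libraries of the series held 22056 barcodes in all.

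The library came from the dorsal epidermis of 1 mouse, collected 5 days after the last dose of tamoxifen. In this model (K14-CreERT; *Supt6* fl/fl) the keratin 14 promoter drives a Cre recombinase that tamoxifen activates, so *Supt6* is deleted in basal keratinocytes and passed on deleted to their progeny. The GEO labels call the genotype a *Supt6* knockdown. The comparison library came from 1 mouse labelled WT that received corn oil, whereas mice given corn oil are described by the study as *Supt6* fl/fl, so the genotype of the control mouse is uncertain. The study places induction in the first telogen, the resting phase of the hair cycle, and the ages of the mice behind these libraries are not given in the sources used here. Genotype, injected compound, mouse and library cannot be told apart, and no comparison has a replicate. The *Supt6* level and the markers of keratinocytes and other skin cells were not analysed here, since each needs named rows.

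SPT6, the protein that *Supt6* encodes, is a histone chaperone and elongation factor that travels with RNA polymerase II along transcribed genes. The epidermis is renewed from basal keratinocytes, which leave the basement membrane and switch on successive sets of differentiation genes as they move outward. Single epidermal cells therefore carry very different sets of abundant transcripts, according to their layer and state. In droplet sequencing, RNA released from broken cells also adds UMIs to droplets that hold other cells, so a single UMI of an abundant transcript does not by itself show that the cell made it.

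The control library held 6914 cells under the same filter, of 9085 barcodes. In these cells R06163 had 5 UMIs, spread over 4 cells, or 0.0504 counts per 1000000 UMIs (CPM; 95% exact Poisson interval 0.0164 to 0.118). In the *Supt6*-KO cells it had 29112 UMIs, or 272 CPM (269 to 275). The median depth of these cells was 11191.5 UMIs in *Supt6*-KO and 11987.5 in control. Over all barcodes the medians were 7800 and 10094, and 65.8% and 76.1% of barcodes passed the filter, so the *Supt6*-KO library was the shallower. The libraries shared 23 barcode sequences, of which 10 passed the filter in both. All intervals given here are 95% exact intervals for counting error, and differences between mice are not part of them.

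Carriage of R06163 was very uneven among the positive cells. Positive cells made up 30.2% of the *Supt6*-KO cells (29.2 to 31.2, exact binomial), against 0.0579% of control cells (0.0158 to 0.148). Of the positive cells, 1745 had exactly 1 UMI, 503 had 2 to 4, 193 had 5 to 29 and 140 had 30 or more. The 140 cells with the most, which were 1.64% of the cells, held 81.8% of all R06163 UMIs, whereas the 1745 cells with 1 UMI held 5.99%. The 85 richest cells, or 1% of the cells, held 73.8%, and 10% of the cells held 94.1%. The level of this transcript in the library was thus set by a small minority of the cells that counted as positive.

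**Figure D1:**
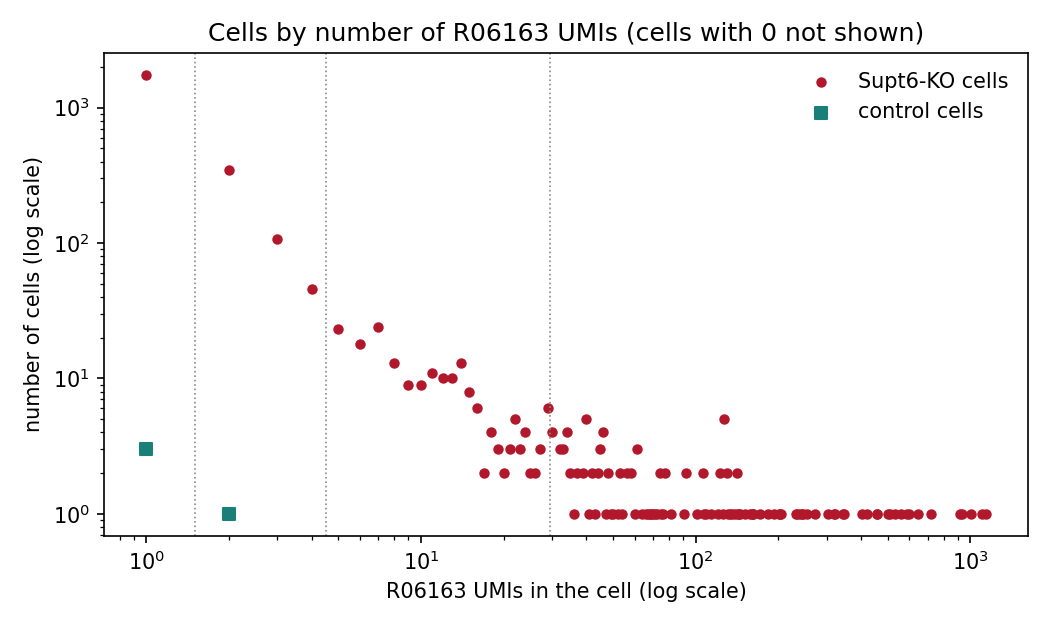
The number of cells (vertical axis, log scale) is plotted against the number of R06163 UMIs in the cell (horizontal axis, log scale), with *Supt6*-KO cells as circles, control cells as squares, and dotted lines between the bands of 1, 2 to 4, 5 to 29 and 30 or more UMIs. The *Supt6*-KO cells run from 1745 cells with 1 UMI to a single cell with 1135, and no control cell had more than 2.

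In the richest cells R06163 took up several percent of the cell's UMIs. The highest cell held 1135 UMIs of it, which was 7.40% of that cell's 15347 UMIs. Another cell held 1007, or 7.72% of its 13048 UMIs. The 10 richest cells held between 558 and 1135 UMIs each and together 28.1% of all R06163 UMIs, and in the other 8 of them it was 2.07% to 4.30% of the cell's UMIs. Within the band of 30 or more UMIs the median was 79 per cell, against 11 in the band of 5 to 29. The summed level was 75.03 CPM in cells with 1 UMI (71.6 to 78.6), 151 CPM with 2 to 4 (142 to 160), 666 CPM with 5 to 29 (640 to 694) and 9113 CPM with 30 or more (8998 to 9229). These levels follow from the bands themselves and are given as a description.

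Detection of R06163 depended on depth. Positive cells had a median of 13047 UMIs (quartiles 9181 and 17758) and negative cells 10481 (quartiles 7530 and 14319.5). The share of positive cells was 22.2% (20.8 to 23.6) from 5000 to under 10000 UMIs, 32.7% (31.3 to 34.2) from 10000 to under 20000 and 49.7% (46.5 to 53.0) at 20000 or more. The share with 5 or more UMIs was 1.47% (1.10 to 1.93), 4.14% (3.55 to 4.79) and 12.1% (10.1 to 14.4) in the same bins. The summed level rose as well, from 112 to 251 to 499 CPM, so the deep cells carried more R06163 per UMI and not only more UMIs. When every cell was thinned at random to 5000 UMIs, 17.0% of the cells remained positive. On either side of the depth limit the shares overlapped, at 20.7% (16.6 to 25.3) of the 353 cells less than 500 UMIs under it, counted from 4500, and 19.1% (15.2 to 23.5) of the 367 cells less than 500 UMIs above it. The threshold between 0 and 1 UMI lies inside the most crowded part of the distribution.

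R06163 was also found in barcodes that failed the filter. In the 1142 *Supt6*-KO barcodes with fewer than 500 detected rows, which had a median of 667 UMIs, 171 held it, and its summed level was 274 CPM (240 to 313), close to the 272 CPM of the cells. In the 3289 barcodes with at least 500 rows and fewer than 5000 UMIs it was 172 CPM (164 to 181). Of these, 32 held 5 or more UMIs of R06163, and the highest held 155. The 368 control barcodes with fewer than 500 rows held 1 UMI. No cell type known to lack R06163 could be named to measure the share that free RNA gives, so how many of the cells with 1 UMI made the transcript was not tested.

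The positive cells were then placed in clusters. The 8540 cells were clustered on 2000 variable rows with R06163 left out, which gave 19 clusters, numbered from the largest to the smallest and left unnamed. Cells with 5 or more UMIs were concentrated in 4 of them. Clusters 10, 3, 11 and 14 held 251 of the 333 such cells, or 75.4%, and 20.3% of all cells. In cluster 10, 92 of 341 cells had 5 or more UMIs, or 27.0% (22.3 to 32.0). In cluster 11 it was 48 of 279 cells (17.2%, 12.97 to 22.2), in cluster 14 it was 28 of 208 (13.5%, 9.14 to 18.9), and in cluster 3 it was 83 of 907 (9.15%, 7.35 to 11.2). In cluster 2, the second largest, it was 2 of 1119 cells (0.179%, 0.0217 to 0.644). Clusters 15, 17 and 18 had 0 such cells among 290, which allows a share of up to 1.03% when 3 counts are taken as the limit that a count of 0 allows.

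The level differed between clusters much more than the share of positive cells did. Over the 16 clusters of 100 or more cells the summed level ran from 27.8 CPM in cluster 2 to 1799 CPM in cluster 10, while the share of positive cells ran from 18.9% in cluster 12 (14.5 to 24.0) to 55.8% in cluster 14 (48.7 to 62.6). At 5000 UMIs per cell that share ran from 12.1% to 37.8% over the same clusters. Cells with fewer than 5 UMIs had from 21.8 CPM in cluster 12 to 45.4 CPM in cluster 14, a level that is held low by the limit that defines these cells. Cluster 14 also had the highest median Scrublet doublet score, 0.180 against 0.0480 over all cells, and the part of doublets in its share was not tested. Of control cells placed in these clusters by nearest neighbours, 525 fell in cluster 10, 224 in cluster 3, 6 in cluster 14 and 0 in cluster 11.

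**Figure D2:**
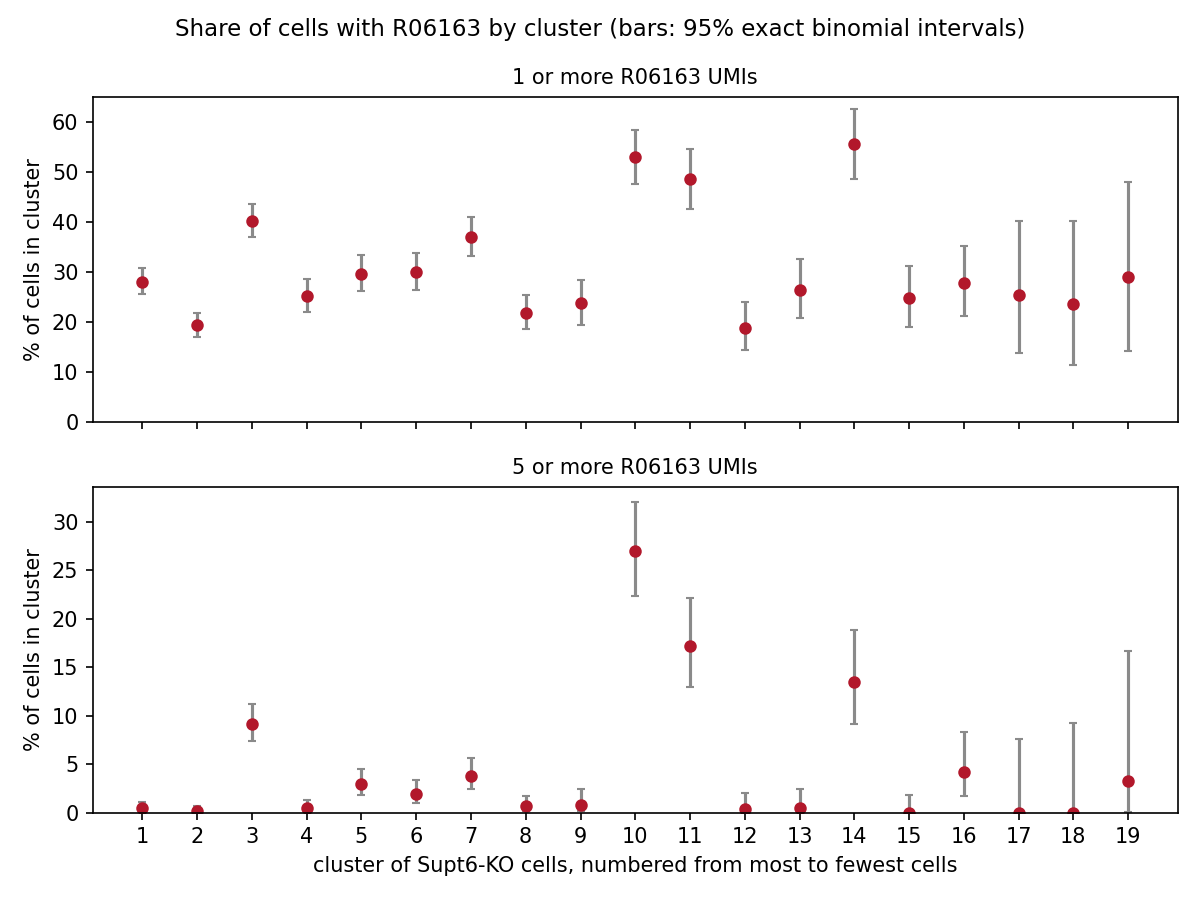
The share of *Supt6*-KO cells with 1 or more (top) and 5 or more (bottom) R06163 UMIs is plotted for each of 19 clusters numbered by size, with bars for 95% exact binomial intervals. The points of clusters 3, 10, 11 and 14 stand above the others at 5 or more UMIs, from 9.15% to 27.0%, and the wide bars of clusters 16, 17, 18 and 19 overlap that of cluster 3, those of 18 and 19 also that of cluster 14, and that of 19 also that of cluster 11.

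The central comparison asked which other transcripts differed between positive and negative cells. Counts were summed over the cells of each group and scaled to CPM, and a row was called where the groups differed by 2-fold or more and the higher of them reached 20 CPM. A sum over cells cannot tell more cells of a kind from more RNA per cell. Ratios are differences of log2(CPM + 1), so those of rows near 0 are understated. Of 5254 rows tested, 20 were higher in positive cells (0.381%) and 0 were lower (0%). The median log2 ratio over all tested rows was −0.13, with quartiles of −0.24 and −0.02, so the summed profiles of positive and negative cells were close for nearly every row. The 20 rows lay between 2.05-fold and 3.73-fold higher.

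The comparison changed with the number of R06163 UMIs. Cells with exactly 1 UMI differed from negative cells in 0 rows in either direction, of 5241 tested, and their median log2 ratio was −0.04. Cells with 2 to 4 UMIs had 11 rows higher and 13 lower. Cells with 5 to 29 had 206 higher and 797 lower, and cells with 30 or more had 276 higher and 1531 lower. With all cells of 5 or more UMIs set against negative cells, 234 of 5365 rows were higher (4.36%) and 1076 were lower (20.1%), with a median log2 ratio of −0.48. The cells with 1 UMI, which were the majority of the positive cells, were therefore hardly distinct from negative cells by this rule, and the rows that differed did so mainly in the 333 richest cells. This contrast at 5 or more UMIs was chosen after the bands had been seen.

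**Figure D3:**
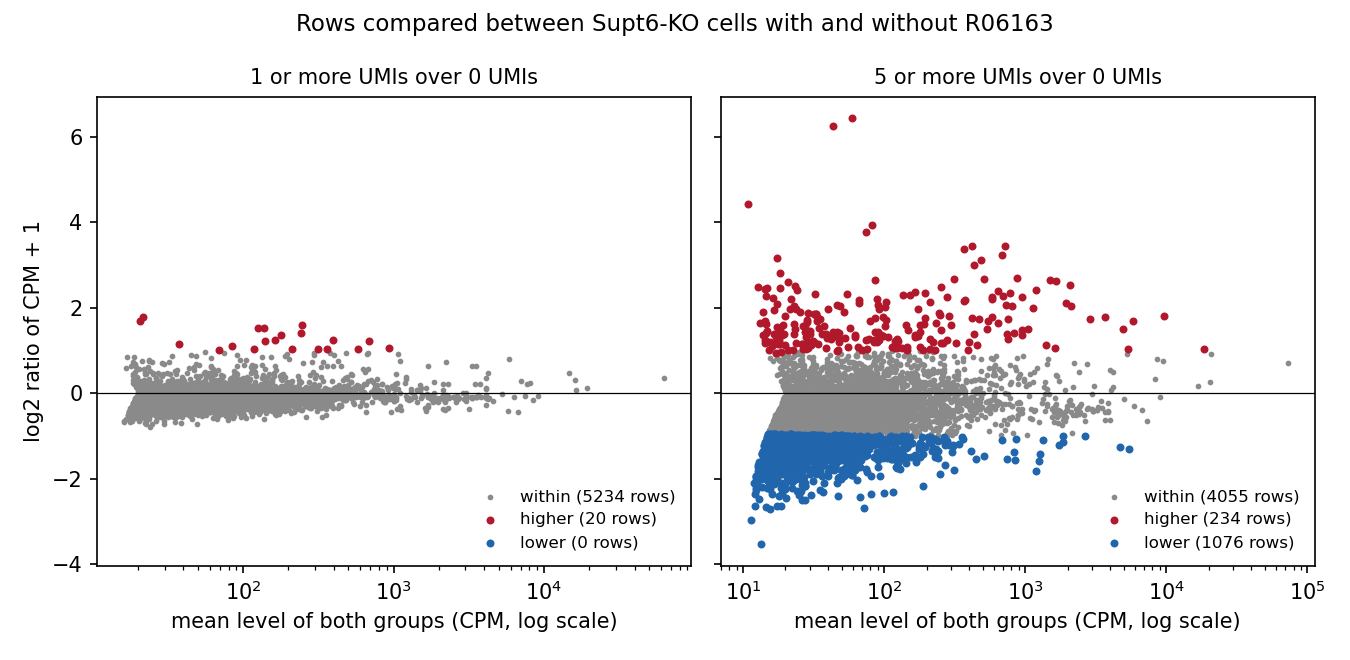
Each point is a row, placed by its mean level in the compared groups (horizontal axis, CPM, log scale) and its log2 ratio (vertical axis), for cells with 1 or more UMIs (left) and 5 or more UMIs (right) over cells with 0. Rows past the 2-fold rule number 20 higher and 0 lower on the left, and 234 higher and 1076 lower on the right.

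The balance of directions in the richest cells depended on the scaling. With TMM factors, which centre the bulk of the rows, the median log2 ratio at 5 or more UMIs moved from −0.48 to 0.03, and the calls moved from 234 higher and 1076 lower to 532 higher and 266 lower. Rows that were higher made up 17.9% of the calls where total UMIs set the scale and 66.7% where TMM factors did. All 234 higher rows and 266 of the lower rows were called under both scalings, which follows from a shift common to every row. For the comparison at 1 or more UMIs the median moved from −0.13 to 0.03, and 43 rows were higher and 0 lower. The most abundant row of the *Supt6*-KO cells took 55094 CPM of negative cells, 70662 CPM of positive cells and 90454 CPM of cells with 5 or more UMIs, and its part in that shift was not tested.

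The rich cells also drew their UMIs from fewer rows. At 5000 UMIs per cell, a median of 1809 rows was detected in negative cells (1800 to 1816), 1768 in cells with 1 UMI (1753 to 1786), 1680 with 2 to 4 (1648 to 1699), 1522 with 5 to 29 (1484 to 1573) and 1424 with 30 or more (1376 to 1475). The number of detected rows fell at each step. The ratio of medians was 0.950 for positive over negative cells and 0.818 for cells with 5 or more UMIs. Without thinning the first of these ratios was 1.07, on the other side of 1, and positive cells were deeper. A block of 13 adjacent rows that was taken as a candidate set of mitochondrial transcripts, and whose identity the files do not give, held 2.84% of the UMIs of negative cells, 2.15% of positive cells and 1.24% of cells with 5 or more UMIs. Of negative cells 6.93% were among the 8% with the highest doublet scores, against 10.5% of positive cells and 11.7% of cells with 5 or more UMIs. The part of these differences in the row comparison was not tested, and with the cells of highest doublet score left out 22 rows were higher and 0 lower, including all 20.

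Of the rows that were higher, R06618 had the largest ratio among those that kept their direction in 3 bins of depth. It had 34.2 CPM in positive cells (32.3 to 36.1) and 9.16 CPM in negative cells (8.46 to 9.90), a 3.73-fold difference (3.39 to 4.11). Across the bands it was at 9.16 CPM with 0 UMIs of R06163, 11.3 with 1, 8.75 with 2 to 4, 99.1 with 5 to 29 and 229 with 30 or more, so it was high only in the richest bands. Its 1915 UMIs came from few cells: 10 cells held 51.0% of them, and a single cell held 156. At 5000 UMIs per cell it was detected in 2.63% of positive cells, 1.66% of negative cells and 8.71% of cells with 5 or more UMIs. In control it had 1 UMI, or 0.0101 CPM. The log2 ratio was 0.14 from 5000 to under 10000 UMIs, 1.91 from 10000 to under 20000 and 1.33 at 20000 or more, so its difference in the shallow cells was small. Within the 11 clusters with at least 1000000 UMIs in both groups, its log2 ratio was above 0 in 4 and below 0 in 7, from −0.88 in cluster 2 to 2.09 in cluster 3, and reached 1 in cluster 3 only. At 1 or more UMIs, where cells with exactly 1 UMI are the majority, the higher level of R06618 was thus not shared by most clusters. At 5 or more UMIs it could be compared in clusters 3 and 10 only, where its log2 ratio was 3.78 and 1.22.

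R06623 was more widely carried. It had 370 CPM in positive cells (364 to 376) and 121 CPM in negative cells (118 to 124), which is 3.05-fold higher (2.97 to 3.14). Its level rose with each band, from 121 CPM with 0 UMIs to 159, 256, 1118 and 1593 CPM. At 5000 UMIs per cell it was found in 21.5% of positive cells, 15.5% of negative cells and 44.4% of cells with 5 or more UMIs, against 1.26% of control cells. The control level was 13.2 CPM (12.5 to 13.9), so negative cells were 9.18-fold above control and the richest cells higher still. Its log2 ratio was 1.11, 1.69 and 0.96 in the 3 bins of depth, and 10 cells held 10.97% of its UMIs. Within the same 11 clusters its log2 ratio was above 0 in 8 and below 0 in 3, from −0.31 to 1.78, and reached 1 in 1 of them, cluster 11. At 5 or more UMIs its log2 ratio was 1.01 in cluster 3 and 0.77 in cluster 10.

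No row passed the rule in the lower direction at 1 or more UMIs, so 2 lower rows were taken by the same rule from the contrast at 5 or more UMIs, after their values had been seen. R25401 had 25.7 CPM in negative cells (24.5 to 26.9) and 1.31 CPM in cells with 5 or more UMIs, which rests on 8 UMIs, and was 19.6-fold lower (9.94 to 45.5). In control it stood at 181 CPM (179 to 184) and was detected in 28.0% of cells at 5000 UMIs, so this row was below control in negative cells too and lowest in the rich ones. R24997 had 20.8 CPM in negative cells (19.7 to 21.9) and 1.80 CPM in cells with 5 or more UMIs, on 11 UMIs, and was 11.6-fold lower (6.45 to 23.2). Its control level was 11.3 CPM (10.6 to 11.9), so negative *Supt6*-KO cells lay 1.85-fold above control and the rich cells below it. At 1 or more UMIs these rows had log2 ratios of −0.53 and −0.58, within the 2-fold limit. At 5 or more UMIs they could be compared within clusters 3 and 10 only. There the log2 ratio of R25401 was 0.0025 and −0.62. With 8 UMIs over all rich cells this row was near the floor, so these ratios do not decide whether it differed within either cluster. That of R24997 was −1.24 and −2.07, on no more than 11 UMIs. At 1 or more UMIs, over 11 clusters, R25401 was above 0 in 4 and below 0 in 7, from −1.15 to 0.64. R24997 was likewise above 0 in 4 and below 0 in 7, from −1.12 to 0.50. The log2 ratio was −1 or less in 3 clusters for R25401 and in 1 for R24997.

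The 20 rows that were higher in positive cells rose together with the R06163 band. All 20 were higher in cells with 1 UMI than in negative cells, by a median of 1.23-fold and a range of 1.02-fold to 1.57-fold. The median ratio to negative cells was 1.94-fold with 2 to 4 UMIs, 5.35-fold with 5 to 29 and 8.14-fold with 30 or more, and 19 of the 20 rows increased at every step. The exception was R06618, which was lower with 2 to 4 UMIs than with 1. All 20 were also past 2-fold at 5 or more UMIs, with a median log2 ratio of 2.68 against −0.48 over all tested rows. These cells overlap with those that chose the 20 rows, so these ratios describe the rows and are no independent check of them. Of the UMIs of these rows, 26.1% came from the 333 cells with 5 or more UMIs of R06163. In the numbering of the rows, 9 of the 20, R06618 included, lay within 15 rows of R06618, where 15 rows were tested, against 0.381% of all tested rows called. Whether reads were shared between similar neighbouring genes cannot be told from counts, so the values of single rows there are uncertain.

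Set beside control, these 20 rows fell into more than one kind. Their median level was 37.8 CPM in control, 97.3 CPM in negative cells and 242 CPM in positive cells. For 13 rows the order was control below negative below positive. For 5 rows control was the highest of the 3, and for the other 2 it lay between negative and positive cells. Positive cells were at least 2-fold above control in 14 of the 20 rows and at least 2-fold below it in 0. Over all tested rows, 299 of 5888 were higher than control by that rule (5.08%), but the 20 rows were chosen for a high level in positive cells, so nothing is read from this count. Negative cells were at least 2-fold above control in 11 of the 20 and at least 2-fold below it in 5, against 322 (5.4%) and 960 (16.1%) of 5960 tested rows. The 11 include R06618 and another row, at 9.16 and 9.22 CPM in negative cells and under 1 CPM in control. Neither reached 20 CPM in either group, so neither is among the 5960, and the counts follow different rules. The 20 rows were also chosen on the *Supt6*-KO cells, so nothing is read from these counts either. The median log2 ratio of the 20 was 2.78 for positive cells over control and 1.46 for negative cells over control, where the medians over all tested rows were −0.41 and −0.27. Both contrasts share the control cells. Most of these rows were thus already above control in the summed counts of the *Supt6*-KO cells with no detected R06163. The part of free RNA in these levels was not tested.

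The levels in control spanned a wide range. In control 2 of the 20 rows were below 1 CPM and 9 were below 20 CPM, while the most abundant reached 2368 CPM, where negative and positive cells had 606 and 1267 CPM. Because of that row the summed level of all 20 was higher in control, at 4259 CPM, than in negative cells, at 3088 CPM, and lower than in positive cells, at 7035 CPM. Cells with 5 or more UMIs had 20366 CPM. The sum and the median therefore order control and negative cells in opposite ways.

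**Figure D4:**
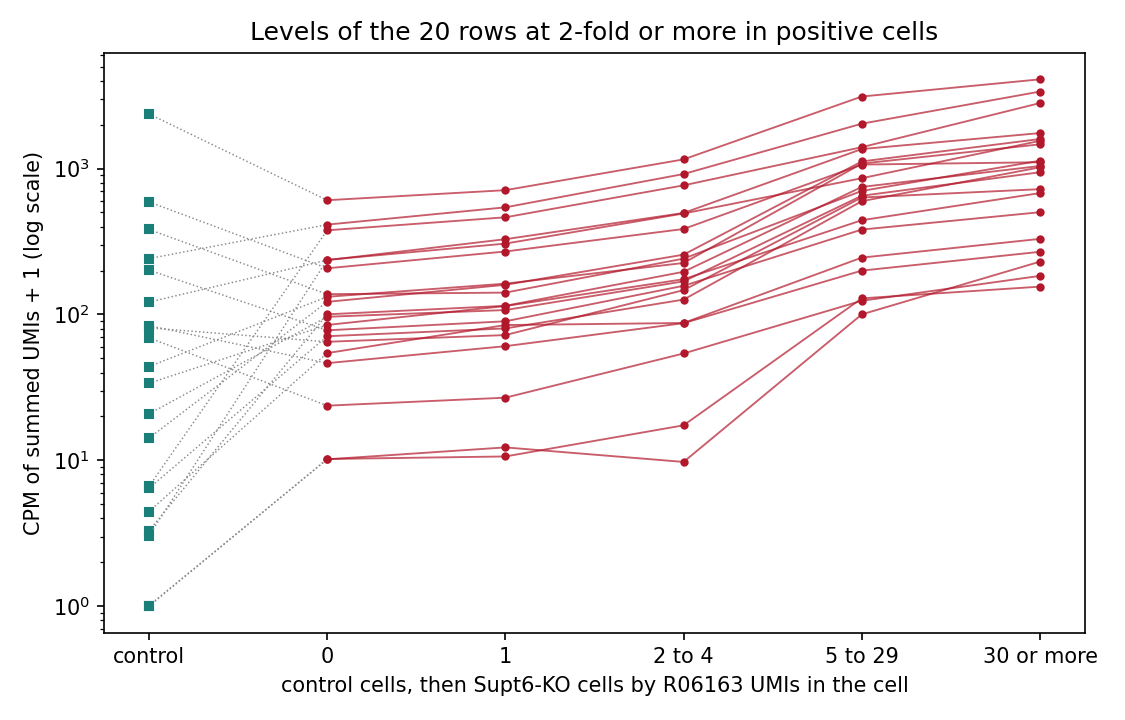
Each line is 1 of the 20 rows that were at least 2-fold higher in positive cells, with its CPM + 1 (log scale) in *Supt6*-KO cells by R06163 band, and a square joined by a dotted line for its level in control. Lines climb from 0 to 30 or more UMIs, while the control squares spread from 0 to 2368 CPM.

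The 20 rows were also summed in single cells. They were chosen on these same positive and negative cells, so the order of these groups follows from the choice and is given as a description. At 5000 UMIs per cell the summed UMIs of the 20 rows had a median of 1 in control cells (quartiles 0 and 3), 3 in negative cells (2 and 7) and 5 in positive cells (2 and 21). By band the median was 4 with 1 UMI, 6 with 2 to 4, 38 with 5 to 29 and 67.5 with 30 or more. At least 50 UMIs of the 20 rows were held by 5.77% of negative cells (5.19 to 6.40), 14.4% of positive cells (13.1 to 15.8) and 50.8% of cells with 5 or more UMIs (45.2 to 56.2), and by 7.26% of control cells (6.66 to 7.90). All cells with 5 or more UMIs of R06163 held at least 1 UMI of the 20 rows, but so did most others, since only 6.31% of negative cells and 5.39% of positive cells held 0. Of the 716 *Supt6*-KO cells with 50 or more, 344 (48.0%) had 0 UMIs of R06163 and 169 (23.6%) had 5 or more. Many cells rich in the 20 rows thus had no detected R06163, which at these depths does not show that the transcript was absent from them, and 502 control cells passed the same limit. The limit of 50 was chosen after the data were seen, and 106 *Supt6*-KO cells lay between 45 and 54.

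**Figure D5:**
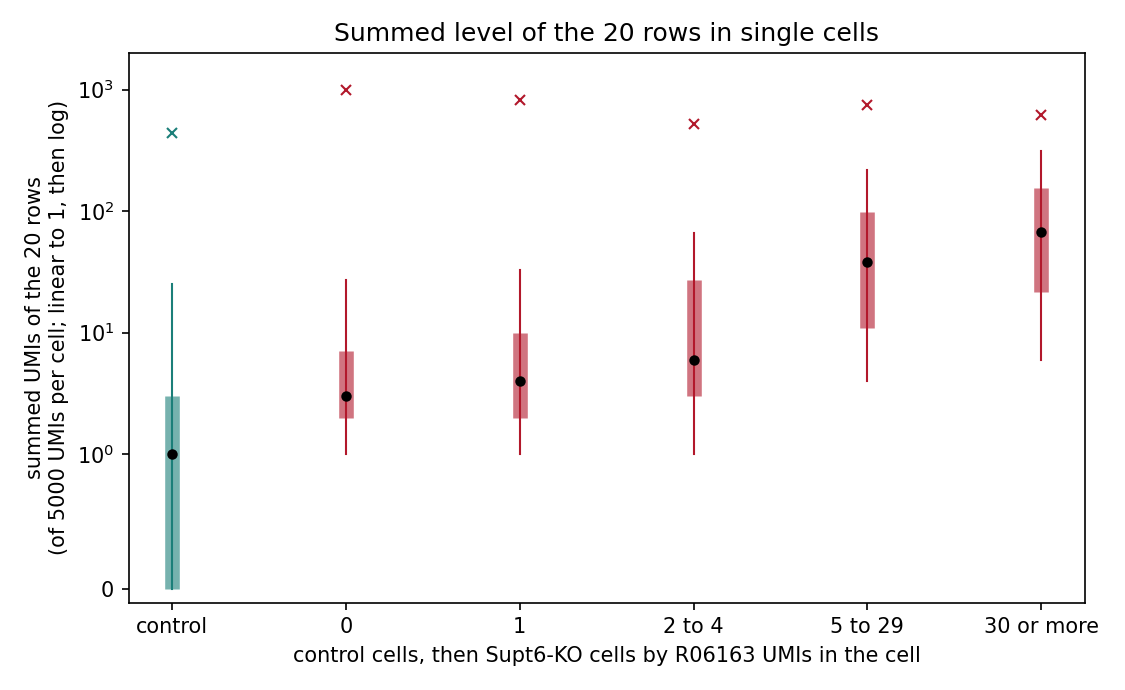
For control cells and for *Supt6*-KO cells by R06163 band, the summed UMIs of the 20 rows in cells thinned to 5000 UMIs are shown as the median (dot), the quartiles (thick bar), the 10th to 90th percentiles (thin line) and the highest cell (cross), on an axis that is linear to 1 and logarithmic above. The median climbs from 3 with 0 UMIs of R06163 to 67.5 with 30 or more, and stands at 1 in control, whose highest cell reached 439.

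The rows that differed in the rich cells were set beside control in the same way. The 234 higher rows had a median of 121 CPM in cells with 5 or more UMIs, 37.4 CPM in negative cells and 59.8 CPM in control. Their median log2 ratio of negative cells over control was −0.59, below the −0.17 of all 5365 tested rows. In 93 of the 234 rows negative cells were at least 2-fold below control and in 72 at least 2-fold above it, against 619 (11.5%) and 363 (6.77%) of all 5365 tested rows. Rich cells were above control in 180 of the 234 and at least 2-fold above in 122, against 1363 and 294 (5.48%) of all tested rows. The 1076 lower rows had medians of 17.0, 43.0 and 53.2 CPM in rich cells, negative cells and control, and rich cells were at least 2-fold below control in 840 of them, against 1848 (34.4%) of all tested rows. Both sets were chosen on the ratio of rich to negative cells, so the counts of either group of cells against control partly follow from that choice and are a description.

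Most of these differences lay between clusters and not within them. When the negative cells were weighted to the cluster shares of the positive cells, over 17 clusters with at least 10 cells in both groups, 1 row was higher and 12 were lower, and 0 of the 20 rows remained past 2-fold. The same weighting of cells with 5 or more UMIs, over 7 clusters that held 91.6% of them, left 2 of the 234 rows higher, and 34 rows lower, of which 6 were among the 1076. The clusters were built from the same rows, so this weighting takes out differences that define the clusters.

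Within clusters the 20 rows differed less. They were chosen on these same cells, so counts of how many stayed higher partly follow from the choice and are a description. In the 11 clusters with at least 1000000 UMIs in both groups, positive cells had the higher level in 8 to 19 of the 20 rows, and the median log2 ratio of the 20 ran from −0.09 in cluster 7 to 0.41 in cluster 11. The number past 2-fold was 0 to 5 of 20. Across all tested rows, 3710 to 5734 per cluster, 0 to 9 were higher and 0 to 91 lower, with the 91 in cluster 10, of 4014 tested there. Cells with 5 or more UMIs could be compared in this way in clusters 3 and 10 only. In cluster 3, 83 such cells had 28 of 4473 tested rows higher and 32 lower than 541 negative cells. There 10 of the 20 rows were past 2-fold, with a median log2 ratio of 0.99. In cluster 10, 92 such cells had 10 of 4037 tested rows higher and 210 lower than 160 negative cells. There 1 of the 20 was past 2-fold, with a median of 0.33. The negative cells of cluster 10 already held 37591 CPM of the 20 rows in sum, against 5576 CPM in cluster 3.

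A few rows of the rich cells rested on single cells. Of the 234 higher rows, 5 drew over 50% of their UMIs in the 333 rich cells from 2 cells, and 4 of these 5 were led by the same 2 cells. Both cells were in cluster 9, where 3 of 365 cells had 5 or more UMIs, and held 343 and 1007 UMIs of R06163. Over all *Supt6*-KO cells, these 2 held 533 of 547, 723 of 765 and 131 of 140 UMIs of 3 of the rows, and 217 of 743 of the other. The cell with 1007 held 3 UMIs of the 20 rows at its full depth, whereas the other 9 of the 10 richest cells held between 63 and 1307. Cells rich in R06163 were thus not uniform in the other rows they carried. With the 10 richest cells left out, 235 rows were higher and 1057 lower at 5 or more UMIs, and 20 higher and 0 lower at 1 or more.

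Rows numbered near R06163 were also compared. Of 151 consecutive rows around it, from row 6100 on, 40 were tested, and 0 were higher and 0 lower in positive cells, with log2 ratios from −0.68 to 0.36, where 0.381% and 0% of all tested rows were called. The 0.36 belonged to the most abundant row of the *Supt6*-KO cells, which is 5 rows from R06163 and had 2604 CPM in control and 55094 CPM in negative cells. At 5 or more UMIs 2 of 42 were higher and 6 lower, beside 4.36% and 20.1% of all tested rows, and nothing is read from counts this close to those shares.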

How the data were processed

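Single-cell RNA-Seq of dorsal epidermis gave 1 library per group. Per the labels and methods, the authors separated the epidermis enzymatically, captured cells with Chromium Single Cell 3ʹ v3.1 chemistry, aligned reads with STAR to GRCm39 in Cell Ranger 7.1.0, which also removed barcodes not associated with cells, and used Seurat 4.1.1 downstream. The annotation release is not given in the sources used here. The deposited values were raw UMI counts for 34099 numbered rows per barcode, and the deposited barcode lists gave cell names only. No other column was present, and the reference at hand was of another build, so rows were not named, no sequence is shown, and planned cell type markers could not be used.

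From the counts, cells with 500 or more detected rows and 5000 or more UMIs were kept and divided by R06163. R06163 was left out of the row comparisons and of the clustering. With 1 library per group and cells that are not replicates, no test was made and no p-value computed. Intervals are exact Poisson, exact binomial, conditional for ratios, or from order statistics for medians. Totals were 106925482 UMIs in the *Supt6*-KO cells and 99131385 in the control cells. The rows named are R06163 and, at each end of the log2 ratios, the 2 most extreme of those that passed the size rule and had 1 sign in all 3 bins of depth (limits at 10000 and 20000 UMIs). R06163, the lists and the comparisons were chosen with earlier results of these data known. Clustering used 30 principal components, 15 neighbours from scikit-learn 1.9.0, a graph of shared neighbours in igraph 0.11.9, and leidenalg 0.10.2 at a resolution of 1. Doublets were kept, scored with Scrublet in scanpy 1.11.5, and the 8% with the highest scores left out as an alternative. TMM factors came from edgeR 4.0.16 under R 4.3.3. Python 3.11.15, numpy 2.4.6, scipy 1.17.1, pandas 2.3.3 and matplotlib 3.10.9 were used otherwise. Alternatives covered the UMI minimum, the UMIs that define a positive cell, thinning, scaling, the CPM minimum, the fold, the pseudocount, cluster weighting and doublets.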

Additional observations from a re-analysis of the deposited data

Results flagged for a closer look

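R06163 was measured in barcodes outside the comparisons, those with fewer than 500 detected rows, and was above the control level there. In the 1142 such *Supt6*-KO barcodes it had 228 UMIs, or 274 CPM (240 to 313), and 15.0% of them held at least 1 UMI (12.95 to 17.2). In the 368 such control barcodes it had 1 UMI, or 3.95 CPM (0.1001 to 22.03). The highest of these *Supt6*-KO barcodes held 29 UMIs, 151 of the 171 with any held exactly 1, and 2 held 5 or more. Whether these barcodes held cells was not tested.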

How the results depend on the processing

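The share of positive cells moved from 30.2% to 27.1% with no UMI minimum, 28.0% with a minimum of 2000, 35.9% with 10000, 9.79% and 3.90% when 2 or 5 UMIs were required, and 17.0% after thinning. The 20 higher rows became 43 with TMM, 32 with positivity read from thinned counts, 34 at a minimum of 5 CPM, 86 at 1.5-fold, 3 at 3-fold, 1 with cluster weighting, and 117, 234 and 0 in cells with 2 or more, 5 or more and exactly 1 UMI. Thinning before summing gave 17 rows, which held 15 of the 20. The mean of single-cell CPM gave 17, with 16 of the 20, and a minimum of 10000 UMIs gave 22, with 16 of the 20. The 0 lower rows became 6 with thinning before summing, 2 with thinned positivity, 5 with the mean of single-cell CPM, 1 at a minimum of 10000 UMIs, 12 with cluster weighting, 8 at 5 CPM, 29 at 1.5-fold, and 170 and 1076 at 2 or more and 5 or more UMIs. At 5 or more UMIs, in alternatives added after the data were seen, 234 higher and 1076 lower rows became 532 and 266 with TMM, and 2 and 34 with cluster weighting. The ratio of detected rows became 1.07 unthinned and 0.818 at 5 or more UMIs. Looser or stricter limits move such counts by construction, and elsewhere the cause was not tested. No median against control changed sign under the alternatives run: over positive cells it ran from 2.13 to 3.05, and over negative cells from 0.94 to 2.34. No paired analysis was possible because a single library stood in each arm, and no replicate could be left out. Depth limits the rows and clusters with few UMIs or cells, whose intervals are wide, and variation between mice was not measured for any comparison.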
